A study of Mus musculus with 38 samples.

Results

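The genes for 3 EGF-family receptors (Egfr, Erbb2 and Erbb3) and 7 of their ligands (Areg, Ereg, Hbegf, Tgfa, Btc, Epgn and Nrg1) were followed through SOX9-driven reprogramming of mouse epidermal stem cells (EpdSCs), as 10 of the 21911 protein-coding genes of the annotation. The members were chosen by name. Each was read over a window of its gene and 50 kb on both sides (GRCm38/mm10), and every interval that overlapped this window by at least 1 bp was taken from 14 deposited lists. Of these, 5 held H3K27ac peaks and 5 held H3K4me1 domains of sorted skin cells, and 4 held H3K4me1 intervals of cultured cells. All values came from MINT-ChIP, a histone ChIP-seq method in which barcoded samples are pooled before the precipitation. The sorted cells came from male mice of the genotype K14rtTA; TRE-myc-Sox9, in which the Krt14 promoter of basal keratinocytes drives the activator that doxycycline (DOX) turns on, and that activator in turn switches on MYC-tagged Sox9. All 5 groups carry these alleles, D0 included. DOX was injected at postnatal day 21 and given in the feed from then on. Cells were collected from back skin before DOX (D0) and after 1, 2, 6 and 12 weeks (W1, W2, W6 and W12), and were sorted as CD49f-high, CD34-negative and Ly6A-high after exclusion of CD31, CD45, CD117 and CD140a. The W12 cells were different in origin: skin of newborn pups was grafted onto immunocompromised Nude hosts and induced after healing, so that the graft and the length of induction cannot be told apart at W12. The cultured cells were keratinocytes from back skin of the genotype K14rtTA; TRE-myc-Sox9 variants. They carried wild-type SOX9 without DOX, or, with DOX, wild-type SOX9 (WT), SOX9 without its DNA-binding HMG domain (ΔHMG) or SOX9 without its transactivation domain (ΔTA).

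EGFR, ERBB2 and ERBB3 are receptors of the cell surface that signal in pairs. EGFR binds AREG, EREG, HBEGF, TGFA, BTC and EPGN, ligands that are made as membrane proteins and released by cutting, whereas ERBB3 binds NRG1, and ERBB2 has no known ligand and serves as a partner of the others. In basal epidermis EGFR signalling is known for keeping keratinocytes dividing and restraining their differentiation. H3K4me1 marks enhancers that are primed or in use, and H3K27ac marks enhancers and promoters in use. A peak or domain is a place on the chromosome and carries no transcript level.

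Each list was called by the authors on merged replicates. No value therefore has a replicate error, no test between lists was possible, and a difference is described by its size and by how often a difference of that size occurred over all genes. In sorted bulk cells, fewer cells with a mark and less of the mark in each cell cannot be told apart. The W2 and W12 lists were not independent, because reads of 1 W2 replicate and of both W12 replicates came from shared libraries and were split by barcode. The H3K27ac lists held 29081 to 33985 peaks. The background pileup that their fold values imply ranged from 0.299 reads at W1 to 0.677 reads at W6. By this estimate W1 was the shallowest and W6 the deepest. Absence from a list means only that the site was not detectable at its depth, which is not known for the H3K4me1 lists. The W12 list held the most peaks, but they were narrower (median 476 bp, against 635 to 821 bp in the other lists) and covered 0.847% of the genome, the least of the 5. This list alone carries a further tag in its name, and whether its peaks were called with other settings is not known. The label of the cells held for the basal markers: all 6 (Krt5, Krt14, Itga6, Itgb4, Trp63 and Col17a1) had H3K27ac within 1 kb of the start site in all 5 lists. None of the 2 leukocyte and 2 fibroblast markers (Ptprc, Cd3e, Pdgfra and Col1a1) had H3K27ac there in any list, while 1 of the 2 endothelial markers (Pecam1, not Cdh5) had it at W6 and W12 and 1 of the 2 melanocyte markers (Dct, not Kit) at W1. Of the 4 hair follicle stem cell markers, 1, 1, 3, 1 and 0 had H3K27ac at the start site from D0 to W12, and the part of such cells in the values given here was not tested.

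The members differed from each other. H3K27ac around Egfr was lower at W1, W6 and W12 than at D0, while around its ligand gene Tgfa and around Nrg1 it was higher at W2, W6 and W12. The cluster of ligand genes Epgn, Ereg and Areg had its lowest H3K4me1 coverage at W2, and the values of W6 and W12 were again close to D0. Erbb3, Erbb2 and Hbegf, which lie close to other genes, stayed within the 1.5-fold limit in most comparisons. H3K4me1 around Egfr lay between 45.3% and 50.6% of its window in all 5 lists. A window was counted as higher or lower where its covered bases differed at least 1.5-fold from D0, and the same count over all genes covered in either list gave the background.

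For H3K27ac at W1, 1 of 10 members was higher (Tgfa, background 19.6% of genes) and 3 were lower (Egfr, Btc and Epgn, 18.8%). At W2, 2 were higher (23.9%) and 2 were lower (16.7%). At W6 the counts were 3 higher (28.4%) and 2 lower (13.3%), and at W12 they were 3 higher (19.9%) and 4 lower (40.5%). For H3K4me1 at W1 no member was higher (2.53%) or lower (18.2%). At W2, 1 was higher (9.1%) and 3 were lower (19.7%), at W6, 1 was higher (7.51%) and 0 were lower (18.7%), and at W12, 1 was higher (7.49%) and 1 was lower (19.8%). Each of these counts lies within 2 genes of what the background share gives for 10 genes. The median member kept 0.847 of its D0 H3K27ac coverage at W12, against 0.734 for the median gene. The members are therefore described gene by gene, and 5 values in a row are in the order D0, W1, W2, W6 and W12.

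**Figure D1:**
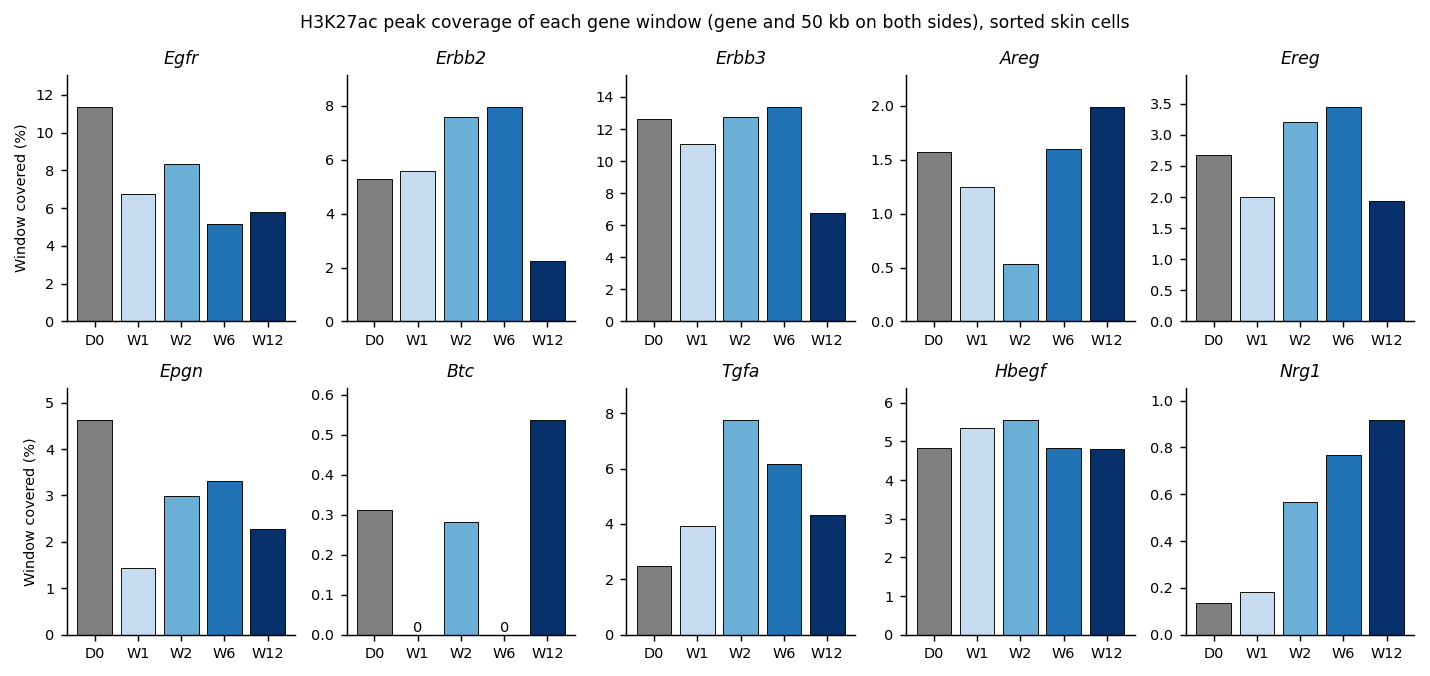
Share of each member's window (gene and 50 kb on both sides) covered by H3K27ac peaks, in percent, in the pooled lists of sorted skin cells at D0, W1, W2, W6 and W12; each bar is 1 list, so there are no error bars, and the vertical scales differ between panels. Egfr was highest at D0, Tgfa peaked at W2 with 7.75%, and Nrg1 was higher in each later list than in the one before, from 0.135% at D0 to 0.917% at W12. The W12 value of Nrg1 includes elements called at W12 alone, most of them without H3K4me1 at W12.

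Egfr, the receptor that binds most of the ligands, lies at chr11:16752203-16918158 on the plus strand. Its window was one of the most heavily marked at D0, with 27 H3K27ac peaks that covered 11.4% of it, whereas the median gene window was covered to 1.42%. The later lists held 17, 24, 16 and 13 peaks there, which covered 6.76%, 8.33%, 5.15% and 5.80%. All later lists were below D0, by 1.68-fold, 1.36-fold, 2.21-fold and 1.96-fold from W1 to W12, and the lowest value was that of W6. The part of list depth in these values was not tested. The median gene was at 1.16 of its D0 value at W6, so that the direction at Egfr was opposite to that of the median gene there. At W12, when the median gene was at 0.734, 24.5% of genes were farther below D0 than Egfr, against 4.31% at W6. The W1, W6 and W12 calls of Egfr held under all alternatives but a 2-fold limit, which only W6 passed.

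What was missing later lay away from the start site. Of the 27 D0 peaks of Egfr, 13, 11, 17 and 16 had no overlapping peak in the lists from W1 to W12. Over all D0 peaks of the genome the shares were 37.4%, 38.6%, 37.8% and 53.7%. Of the 27 at Egfr, 7 had no overlapping peak in any later list. The 2 sites with the highest folds at D0 stayed. The start site element had folds over background of 27.3, 10.8, 14.03, 15.5 and 9.92 from D0 to W12. An element in an intron, 78.7 kb into the gene, had 32.0, 13.1, 16.8, 13.7 and 21.3. Folds depend on the depth of a list and were not compared as levels between lists. Elements came and went in both directions: of the 36 in the window, 13 were not called at D0, and 20 were called in a single list. The elements called at D0 alone numbered 7 (19.4%, against 9.29% of all elements), all in introns, from 13.1 to 115.4 kb into the gene. Those with the highest folds lay 44.1 kb and 21.4 kb from the gene start, with folds of 8.0 and 5.33. The 200 bases around the summits of these 2 elements are shown because they are the clearest D0-only sites of the receptor, and capitals mark a SOX word.
Egfr intron element, 44.1 kb (chr11:16796169-16796368, mm10, plus strand): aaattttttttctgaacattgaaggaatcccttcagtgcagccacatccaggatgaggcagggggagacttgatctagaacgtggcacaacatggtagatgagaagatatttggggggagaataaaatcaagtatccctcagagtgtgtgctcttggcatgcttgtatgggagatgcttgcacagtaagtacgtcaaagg
Egfr intron element, 21.4 kb (chr11:16773458-16773657, mm10, plus strand): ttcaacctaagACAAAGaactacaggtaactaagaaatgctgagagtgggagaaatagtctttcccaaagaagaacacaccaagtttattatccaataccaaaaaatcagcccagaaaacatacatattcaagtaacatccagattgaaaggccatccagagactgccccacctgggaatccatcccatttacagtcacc
The second holds the letters ACAAAG at base 12, and the first holds none of the words searched. H3K4me1 went on at the 44.1 kb site in all 5 skin lists, but at the 21.4 kb site it was called at D0, W1 and W2 and not at W6 or W12. All 36 H3K27ac elements of the Egfr window overlapped H3K4me1 domains of D0, but the same share was not counted over the genome. Of the D0 H3K4me1 bases only 0.158% were missing from all later lists, against 12.04% over the genome. H3K4me1 coverage of the window was 47.5%, 49.0%, 50.6%, 45.3% and 46.2% from D0 to W12. The 2 marks thus differed at Egfr, with H3K27ac coverage lower in every later list and H3K4me1 between 0.954 and 1.06 of its D0 value in each.

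**Figure D2:**
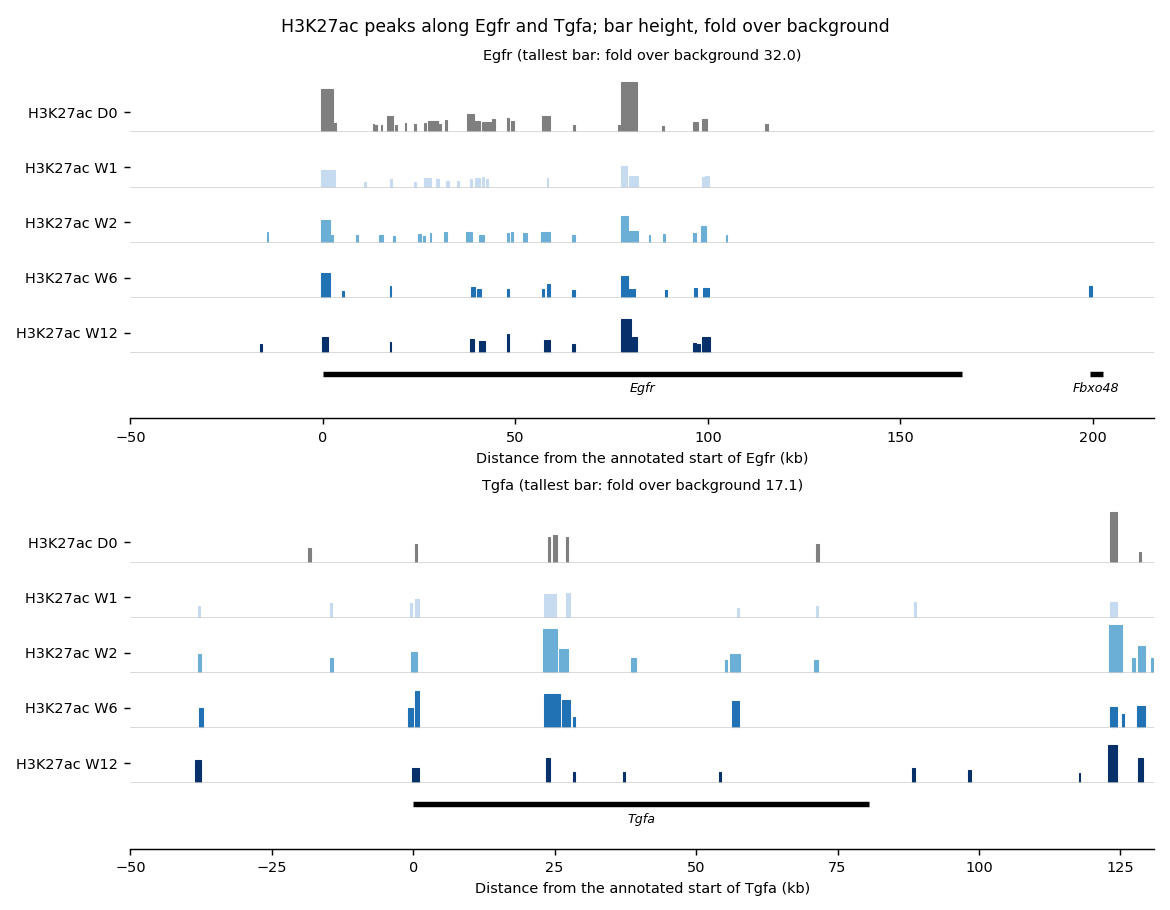
H3K27ac peaks along the windows of Egfr (top) and Tgfa (bottom), by distance from the annotated gene start in kb; each row is 1 pooled list, bar width is the peak and bar height its fold over background, scaled to the tallest peak of the gene (32.0 for Egfr, 17.1 for Tgfa). The small Egfr peaks in the first introns are fewer at W6 and W12, and at Tgfa a peak 38.2 kb upstream is present in the 4 later lists and missing at D0.

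Erbb2 (chr11:98412470-98437716, plus strand), the receptor without a ligand, lies close to other genes: its window holds parts or all of 7 more (Grb7, Ikzf3, Mien1, Pgap3, Pnmt, Stard3 and Tcap), and only 15.4% of its bases are nearer to the Erbb2 start than to the start of another gene. H3K27ac covered 5.29%, 5.59%, 7.59%, 7.97% and 2.24% of it from D0 to W12. The W6 value was 1.51-fold the D0 value, only just past the limit, and was under the limit in all 5 alternatives tried. The W12 value was 2.36-fold below D0. The Erbb2 start site had H3K27ac in all 5 lists, with folds of 7.33, 6.93, 6.32, 9.54 and 5.67 from D0 to W12. An element 7.68 kb into the gene, with its summit in an exon, was not called at D0 and had folds of 6.16, 9.12, 9.54 and 4.25 from W1 to W12, within H3K4me1 that was already called at D0. It was the only gained and kept element of this window, where gained and kept means missing at D0 and called at W2, W6 and W12. The strongest element of the window, with a fold of 18.0 at D0, lies 0.071 kb from the start of a neighbour, Pgap3. H3K4me1 covered 45.8%, 37.9%, 39.5%, 44.9% and 38.0% from D0 to W12, all within the limit.

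Erbb3 (chr10:128567523-128589652, minus strand), which binds neuregulins but has little kinase activity of its own, is also among neighbours: 1 of the 11 H3K27ac elements of its window had Erbb3 as the nearest gene. That element spans the Erbb3 start and was the strongest of the window at D0, with folds of 30.0, 16.2, 16.8, 28.6 and 14.2 from D0 to W12. Coverage was 12.6%, 11.1%, 12.7% and 13.4% from D0 to W6, close to each other, and 6.78% at W12, or 1.86-fold below D0. This value was within the limit with 10 kb flanks and did not reach a 2-fold limit. For H3K4me1 the values were 35.2%, 30.5%, 29.5%, 30.1% and 26.7%. A D0-only element 25.6 kb downstream of the start, with a fold of 4.66, lies in an intron of Pa2g4. The start sites of all 3 receptors had H3K27ac in all 5 skin lists.

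Among the ligands, Epgn (epigen, chr5:91027464-91035215), Ereg (epiregulin, chr5:91074622-91093646) and Areg (amphiregulin, chr5:91139599-91148432) follow each other on the plus strand, and Btc (betacellulin, chr5:91357261-91402994) lies farther along on the minus strand. The windows of Epgn and Ereg share 60.6 kb and those of Ereg and Areg share 54.0 kb, so their values are not separate observations. Over the joined 221 kb, H3K27ac was called in 12, 5, 4, 11 and 9 peaks from D0 to W12, which covered 6.70, 2.91, 3.81, 5.32 and 4.63 kb. H3K4me1 covered 41.9%, 34.0%, 25.1%, 40.7% and 39.4%. By covered bases H3K27ac was lowest at W1 and H3K4me1 at W2, while by number of peaks H3K27ac was lowest at W2, and both marks covered more at W6.

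Epgn, a low-affinity ligand of EGFR, had H3K27ac at its start site at D0 and not later. An element of 1269 bp with its summit 862 bp into Epgn had the highest fold of its window at D0, 9.996, and was called in no later list, although H3K4me1 was called there at all 5 times. No other D0-only element of the 10 members had a higher fold. H3K27ac covered 4.62%, 1.43%, 2.998%, 3.32% and 2.29% of the Epgn window from D0 to W12. Of 9 D0 peaks, 8, 8, 5 and 8 were missing from W1 to W12, against 37.4%, 38.6%, 37.8% and 53.7% of all D0 peaks. In every later list 5 were missing, and D0-only elements made up 35.7% of the 14 elements of the window, against 9.29% of all elements. The W1 value was 3.22-fold below D0, and 1.64% of genes were farther below. With 10 kb flanks the W2 value turned to 0.38 above D0 on the log2 scale. That narrower window holds an element 10.03 kb downstream of the start that was called in all 5 lists, with a fold of 8.42 at W2. H3K4me1 covered 45.4%, 33.4%, 26.0%, 40.8% and 39.3% around Epgn. Of the D0 H3K4me1 bases, 19.9% were missing at W2 alone, against 4.60% over the genome, and 13.9% were missing from all later lists, against 12.04%.

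At Ereg the start site carried H3K27ac at W6 only, as a peak with a fold of 5.37 whose summit lay 56 bp into the gene. That summit is in exons of both Ereg and another annotated gene, Gm19610, so the peak cannot be assigned to Ereg alone. H3K27ac covered 2.68%, 2.01%, 3.20%, 3.45% and 1.93% from D0 to W12, all within the limit. Ereg was counted as lower at W1 and W2 with 10 kb flanks, at W1, W2 and W12 with the bases nearest to its start, and at W6 and W12 with the stronger intervals of each list. For H3K4me1 the values were 44.4%, 37.2%, 26.4%, 43.1% and 41.4%, lower than D0 at W2 by 1.68-fold. At Areg, a ligand known for its abundance in keratinocytes, H3K27ac was within 1 kb of the start site at W6 and W12 and not before. These were different peaks. The W6 peak had its summit 19 bp before the start and a fold of 5.37, and it was not called at W12. The W12 peak had its summit 1323 bp into the gene and a fold of 3.54. Coverage was 1.57%, 1.25%, 0.531%, 1.60% and 1.99% from D0 to W12, in 3, 2, 1, 4 and 5 peaks. The W2 value rests on a single peak. The W6 and W12 values were counted as higher with 10 kb flanks and with the bases nearest to Areg, and as lower with the stronger intervals of each list, so that no direction was settled there. When only the bases nearest to the Areg start were counted it was 0.53 above D0 on the log2 scale, since D0 peaks nearer to Ereg dropped out. That peak is part of an element 29.3 kb upstream of Areg that was not called at D0 and had folds of 5.39, 4.91, 5.96 and 6.38 from W1 to W12. It was the only gained and kept element of the ligand cluster. Its central bases follow, with an AP1 word in capitals.
Areg upstream element, 29.3 kb (chr5:91110230-91110429, mm10, plus strand): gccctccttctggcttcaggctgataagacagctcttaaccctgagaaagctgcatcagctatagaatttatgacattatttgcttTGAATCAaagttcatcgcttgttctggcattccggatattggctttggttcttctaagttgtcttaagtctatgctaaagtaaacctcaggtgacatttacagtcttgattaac
The capitals are TGAATCA at base 87, a match to the searched letters TGANTCA, in which N is any base. No SOX, GATA or RUNX word was in these bases. H3K4me1 was called at this element at all 5 times, D0 included. In culture it was called with wild-type SOX9 and not in the other 3 lists. H3K4me1 around Areg covered 38.4%, 34.7%, 25.2%, 41.2% and 39.7% from D0 to W12, so W2 stood below all other lists.

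**Figure D3:**
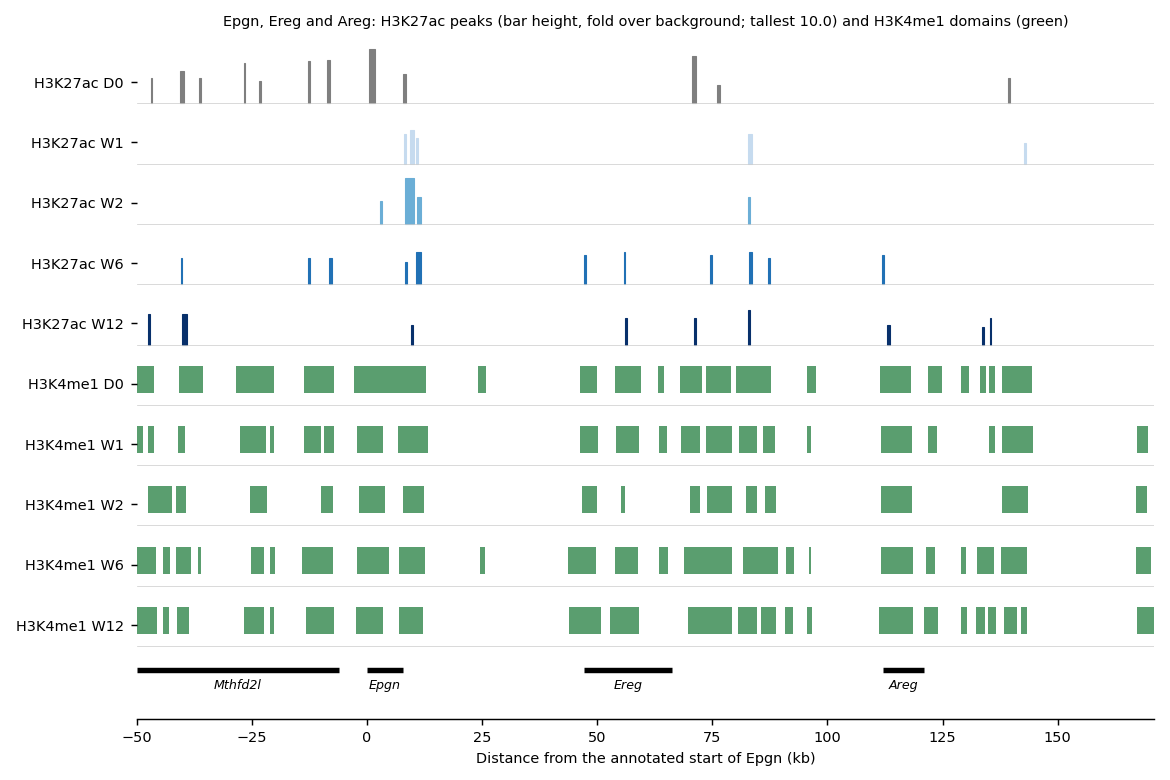
H3K27ac peaks (bar height, fold over background, tallest 9.996) and H3K4me1 domains (green blocks) over the Epgn, Ereg and Areg genes, by distance from the start of Epgn in kb, with 1 row for each pooled list. The tall D0 peak at the start of Epgn is missing from all later rows, a peak between Ereg and Areg is present from W1 on, and the green blocks are fewest at W2.

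Btc had almost no H3K27ac. It was called in 1, 0, 1, 0 and 2 peaks from D0 to W12, which covered 0.313%, 0%, 0.281%, 0% and 0.537% of the window. The peak at the start site was called in 3 lists, with folds of 3.33, 5.61 and 4.96 at D0, W2 and W12. A count of 1 or 2 small peaks makes each of its calls uncertain, and its W12 call turned to 0.12 below D0 on the log2 scale with 10 kb flanks and with lists of equal length. H3K4me1 covered 8.78%, 6.72%, 7.78%, 8.19% and 5.45% from D0 to W12.

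Tgfa (chr6:86195223-86275719, plus strand), a classical ligand of EGFR in epidermis, went the opposite way from Egfr. Its window holds no other protein-coding gene. H3K27ac covered 2.47%, 3.91%, 7.75%, 6.18% and 4.32% from D0 to W12, in 8, 10, 13, 10 and 11 peaks. All 4 later values were above D0, by 1.58-fold, 3.14-fold, 2.50-fold and 1.75-fold. The W2 ratio was larger than that of 96.3% of the 15255 genes covered in both lists, and the W12 ratio larger than that of 92.2% of 15209. The W2 and W6 calls held under all alternatives tried. The W1 and W12 calls were lost with lists of equal length, at log2 ratios of 0.58 and 0.52, just under the limit, the W1 call also with the stronger intervals of each list (0.40) and the W12 call also with the bases nearest to Tgfa (0.50), and neither reached a 2-fold limit. An intronic element 24.1 kb into the gene had folds of 9.33, 8.34, 14.7, 11.3 and 8.50 from D0 to W12. Another, 56.8 kb into the gene, was missing at D0 and W12 and had folds of 2.94, 6.32 and 8.95 at W1, W2 and W6. The element with the highest fold of the window at D0 lies past the end of the gene, 123.6 kb from its start and nearer to the start of Fam136a. Its folds were 17.1, 5.02, 16.1, 7.10 and 12.8. The start site had H3K27ac in all 5 lists. The only gained and kept element lies 38.2 kb upstream, with folds of 3.79, 6.23, 6.56 and 7.79 from W1 to W12, and its central bases hold none of the words searched.
Tgfa upstream element, 38.2 kb (chr6:86156923-86157122, mm10, plus strand): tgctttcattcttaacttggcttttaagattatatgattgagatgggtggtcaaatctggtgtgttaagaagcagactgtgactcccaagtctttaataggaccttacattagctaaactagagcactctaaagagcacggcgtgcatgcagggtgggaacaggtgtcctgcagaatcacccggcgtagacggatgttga
H3K4me1 was present at this element in all 5 skin lists and all 4 culture lists, so this place carried H3K4me1 before DOX. H3K4me1 around Tgfa covered 38.7%, 37.9%, 52.9%, 50.6% and 53.6% from D0 to W12. The 2 early values and the 3 later ones did not overlap, and although the ratio stayed under the limit at 1.37-fold, 1.31-fold and 1.38-fold, it was above that of 89.1%, 90.2% and 91.7% of genes at W2, W6 and W12. Bases without H3K4me1 at D0 and W1 and with it at W2, W6 and W12 made up 7.8 kb, or 4.32% of the window, against 0.328% of the genome.

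Hbegf, the heparin-binding ligand, kept close to its D0 coverage. H3K27ac covered 4.84%, 5.35%, 5.55%, 4.84% and 4.81% of its window from D0 to W12. The start site element had folds of 8.66, 4.62, 5.61, 8.95 and 6.38. The strongest peak of the window, with a fold of 27.3 at D0, lies 0.49 kb from the start of Ankhd1, and only 4 of 12 elements had Hbegf as the nearest gene. H3K4me1 covered 52.7%, 45.7%, 44.3%, 46.1% and 44.3%. With 10 kb flanks, which leave out most of these neighbours, H3K27ac around Hbegf was counted as lower at W1 and W2, and with the bases nearest to its start at W1.

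Nrg1 (chr8:31814551-32884029, minus strand), the neuregulin that binds ERBB3, is the longest member, with a window of 1169 kb and 7 annotated start sites. Its H3K27ac coverage was small but was higher in each later list: 0.135%, 0.182%, 0.569%, 0.767% and 0.917%, in 3, 3, 7, 11 and 16 peaks from D0 to W12. These are 1.34-fold, 4.21-fold, 5.68-fold and 6.79-fold the D0 value. The W2, W6 and W12 ratios exceeded those of 98.1%, 98.9% and 99.6% of genes covered in both lists, and the W2, W6 and W12 calls held under every alternative tried, the 2-fold limit included. Of its 22 elements, 19 were not called at D0, a share that was not counted over the genome. Gained and kept were 3 (13.6%, against 2.54% of all elements), and 8 were called at W12 alone (36.4%, against 21.2%). Most of these 8 had no H3K4me1 called at W12, and their folds ranged from 3.27 to 7.08. The W12 coverage includes them. All 22 lay within the gene. H3K4me1 covered 5.15%, 4.99%, 9.90%, 11.2% and 9.46%, in 23, 19, 33, 39 and 36 domains. The D0 and W1 values lay below the 3 later ones, which were 1.92-fold, 2.18-fold and 1.84-fold the D0 value. Bases new from W2 on and kept made up 21.2 kb, or 1.81% of the window.

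Among the elements of the 10 members that were missing at D0, the highest fold in each of the W2, W6 and W12 lists was found at an internal start site of Nrg1. The first annotated start had no H3K27ac in any list and H3K4me1 at W6 only among the skin lists, although all 4 culture lists had H3K4me1 there. A second group of 4 start sites, 874.6 to 874.9 kb into the gene, had H3K4me1 at all 5 times in skin and in none of the culture lists within 1 kb, although the H3K27ac element around them overlapped culture intervals in all 4. H3K27ac was missing there at D0 and had folds of 4.62, 12.6, 13.1 and 11.3 from W1 to W12, the highest of the window in the last 3 lists. The summit lies in exons of both Nrg1 and another annotated gene, Gm26578, so the peak cannot be assigned to Nrg1 alone. The third group, 965.6 and 965.7 kb into the gene, had no H3K27ac in any list and H3K4me1 at W2, W6 and W12. Elements 844.3 kb and 669.9 kb into the gene were also gained and kept, the former with folds of 3.85, 7.72, 7.16 and 5.67 from W1 to W12 and the latter with 3.51, 4.77 and 6.38 from W2. An intronic element 618.8 kb into the gene was called at all 5 times, with folds of 7.33, 9.24, 9.82, 10.1 and 9.92. The 200 bases before the internal start are shown because this site had no H3K27ac at D0, with a RUNX word in capitals.
Nrg1 internal promoter (chr8:32009452-32009651, mm10, minus strand): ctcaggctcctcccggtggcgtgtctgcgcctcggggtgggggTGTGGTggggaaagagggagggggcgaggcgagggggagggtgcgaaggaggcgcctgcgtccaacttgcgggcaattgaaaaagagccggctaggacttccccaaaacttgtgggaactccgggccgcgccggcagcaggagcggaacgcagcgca
The word is TGTGGT at base 44. It was found in 10.5% of the 200 bases before the starts of all protein-coding genes, and no SOX word was in this stretch.

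**Figure D4:**
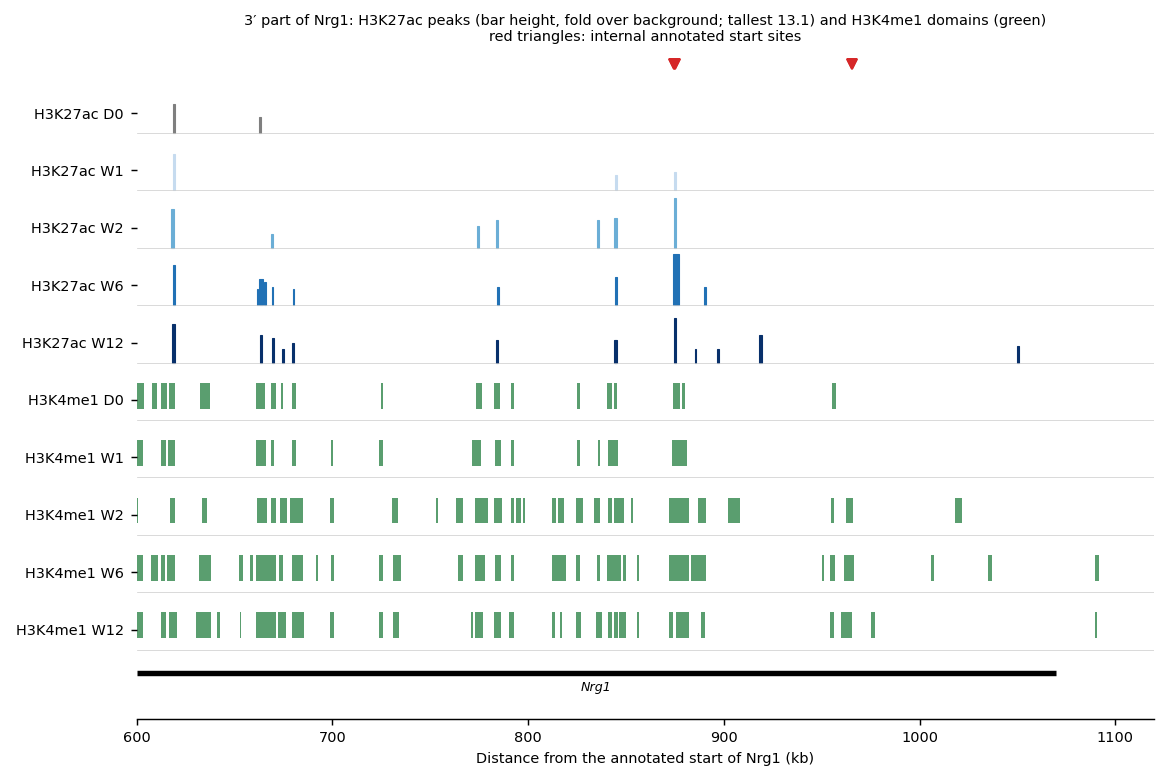
The 3′ part of Nrg1, by distance from its first annotated start in kb, with H3K27ac peaks (bar height, fold over background, tallest 13.1) and H3K4me1 domains (green blocks), 1 row for each pooled list; red triangles mark the internal start sites. The H3K27ac peak at the internal start site near 874.6 kb is missing at D0 and tall from W2 on, and green blocks are more numerous from W2 on.

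Start sites were counted for the whole family. H3K27ac was called within 1 kb of a start site of 7, 6, 7, 8 and 8 of 10 members from D0 to W12, against 44.5%, 43.1%, 44.0%, 48.3% and 36.2% of all genes. Egfr, Erbb2, Erbb3, Hbegf and Tgfa had it in all 5 lists. Nrg1 gained it from W1 on, Areg had it at W6 and at W12 through different peaks, and Epgn had it at D0 alone. H3K4me1 was at a start site, counting any annotated one, of all 10 members at every time point, against 68.9%, 64.3%, 65.2%, 68.0% and 64.7% of genes.

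H3K27ac elements of the 10 windows, each counted once, numbered 140 of 65311 in the genome. Of these, 21 were called in all 5 lists (15.6% of all elements of the genome were), 18 at D0 alone (9.29%), 6 were gained and kept (2.54%) and 21 were called at W12 alone (21.2%), while the other 74 had mixed patterns (51.4%). These are 15.0%, 12.9%, 4.29%, 15.0% and 52.9% of the members' elements. Egfr and Epgn together held 12 of the 18 D0-only elements, and Nrg1 held 3 of the 6 that were gained and kept, the rest being those of Erbb2, Areg and Tgfa described above. Of all 140, 128 overlapped an H3K4me1 domain of D0, a share that was not counted over the genome. Of 76 D0 peaks, 36, 33, 33 and 44 had no overlap in the lists from W1 to W12, or 47.4%, 43.4%, 43.4% and 57.9%, against 37.4%, 38.6%, 37.8% and 53.7% of all D0 peaks. In the other direction, 20 of 60, 29 of 70, 32 of 74 and 36 of 71 later peaks had no overlap at D0, against 41.3%, 40.1%, 39.8% and 56.2% of all. For H3K4me1, 18, 25, 9 and 16 of the 117 D0 domains had no overlap later, or 15.4%, 21.4%, 7.69% and 13.7%, against 27.8%, 32.4%, 26.6% and 31.2% of all D0 domains. These differences were not tested.

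The 200 bases around each summit were searched on both strands for 4 short words. A SOX word (ACAAAG or ACAATG) was in 34 of the members' 140 elements (24.3%, against 23.5% of all elements), an AP1 word (TGANTCA) in 9 (6.43%, against 5.58%), a GATA word (AGATAA) in 12 (8.57%, against 8.95%) and a RUNX word (TGTGGT) in 16 (11.4%, against 13.9%). None of the 6 gained and kept elements held a SOX word, and 1, that of Areg, held an AP1 word. Over the genome, 27.6% of gained and kept elements and 23.3% of D0-only elements held a SOX word, and for the members 4 of 18 D0-only elements did. A match is only a run of letters in this window.

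In culture, which compares SOX9 with its truncated forms, no member passed the 1.5-fold limit against cells without DOX. The only list without DOX came from cells with wild-type SOX9. For ΔHMG and ΔTA, the form of SOX9, the transduced cells and DOX therefore cannot be told apart. With wild-type SOX9, 0 members were higher (background 15.7% of genes) and 0 lower (7.87%). With ΔHMG the counts were again 0 higher (8.21%) and 0 lower (4.61%), and with ΔTA they were 0 higher (15.8%) and 0 lower (3.81%). The value nearest to the limit was that of Epgn, whose window was covered to 12.7% without DOX, 18.5% with wild-type SOX9, 14.9% with ΔHMG and 12.1% with ΔTA, so that wild-type SOX9 gave 1.46-fold the value without DOX. Its neighbour Ereg had 13.1%, 16.8%, 13.7% and 13.0%, and Areg had 9.53%, 10.8%, 10.9% and 9.53%. Over the joined Epgn, Ereg and Areg windows the 4 lists covered 10.9%, 14.35%, 12.6% and 10.6%. Wild-type SOX9 had the highest value here, and ΔTA was close to the cells without DOX. With 10 kb flanks, Epgn and Btc were counted as higher with wild-type SOX9 and Epgn with ΔHMG, but with the stronger intervals of each list Epgn was counted as higher with wild-type SOX9 and lower with ΔHMG.

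The receptors had no common direction in culture. Egfr was covered to 13.1% without DOX, 15.2% with WT, 11.8% with ΔHMG and 13.3% with ΔTA. For Erbb2 the values were 19.99%, 15.7%, 14.9% and 15.9%, lower with all 3 forms, and for Erbb3 they were 14.7%, 16.5%, 15.3% and 11.6%. Tgfa had the highest coverage of the members, with 28.3%, 27.7%, 26.7% and 26.6%, which differed little. Hbegf had 18.9%, 15.5%, 17.5% and 19.0%, Btc 4.95%, 4.74%, 3.99% and 3.89%, and Nrg1 3.92%, 5.12%, 4.11% and 4.20%, in the same order. At Nrg1 the highest fold of the window was 6.24 without DOX, 8.19 with WT, 9.57 with ΔHMG and 6.68 with ΔTA, and these were not compared as levels. Start sites with H3K4me1 numbered 8 of 10 without DOX (56.8% of all genes), 8 with WT (57.7%), 7 with ΔHMG (53.4%) and 8 with ΔTA (54.2%). Ereg had none in any culture list, Epgn had it with WT alone, and Erbb3 had it without DOX and with ΔTA but not with WT or ΔHMG. The skin and culture lists came from different callers or settings, so their coverage was not compared with each other.

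**Figure D5:**
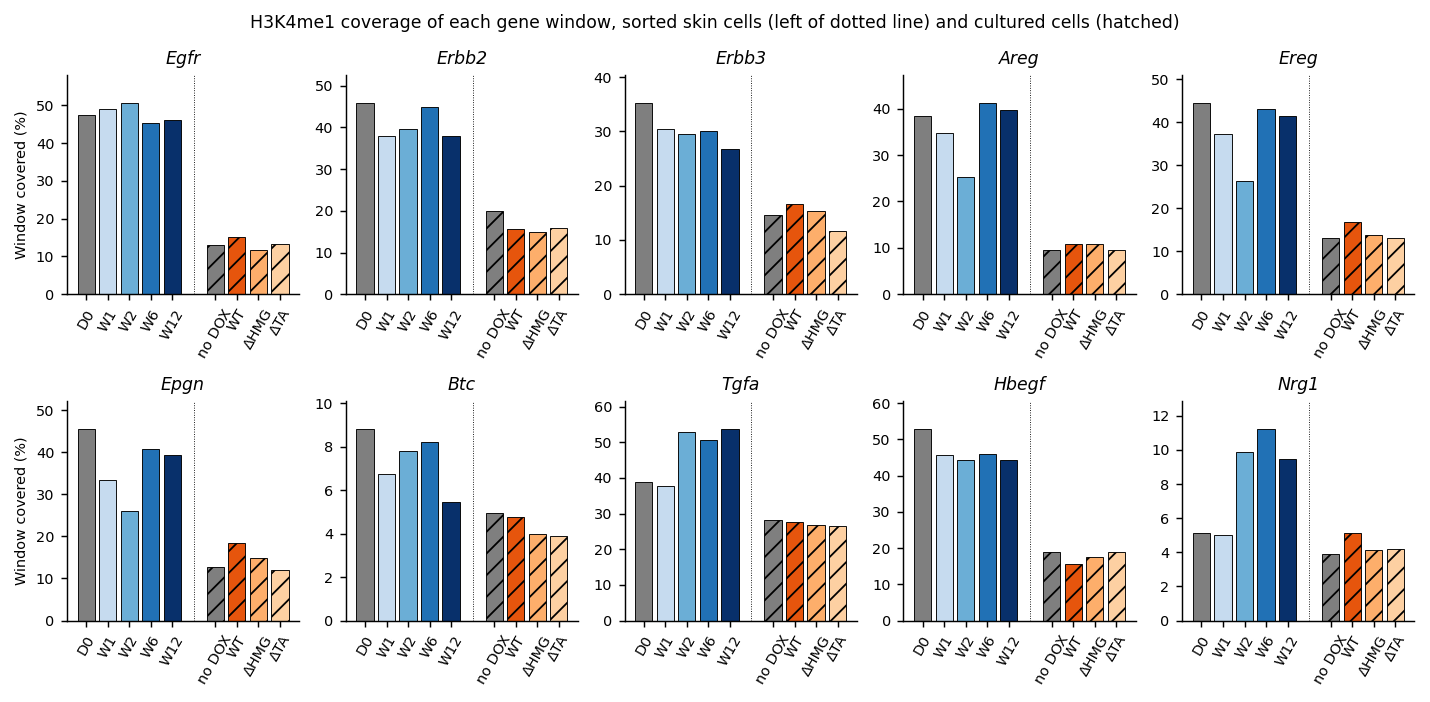
Share of each member's window covered by H3K4me1, in percent, in sorted skin cells at 5 time points (plain bars, left of the dotted line) and in cultured cells without DOX and with WT, ΔHMG or ΔTA SOX9 (hatched bars); each bar is 1 pooled list, so there are no error bars, and the left and right sides were called differently. Areg, Ereg and Epgn dipped at W2, to 25.2%, 26.4% and 26.0%, while Tgfa and Nrg1 were higher from W2 on.

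Beyond the members, 52 more genes of the pathway were read in the same way: 5 receptors and ligands, 5 shedding proteases and partners, 19 adaptors and kinases, 14 feedback inhibitors and 9 immediate targets. For H3K27ac at W2, 12 of the 51 that were covered were higher (background 23.9% of genes) and 5 were lower (16.7%). At W12, 8 of 52 were higher (19.9%) and 27 lower (40.5%), and the latter included 12 of the 19 adaptors and kinases, which many tissues use. H3K27ac was higher at both W2 and W12 around 5 (8.46% of genes) and lower at both around 4 (10.9%). The 5 were Erbb4, a receptor for neuregulins, Spry4 and Dusp6, which restrain ERK signalling, and Plaur and Phlda1, which EGF induces. The 9 immediate targets had no direction common to all lists. At W1, 2 were higher and 3 lower, and at W2 and again at W6, 5 were higher and 0 lower. At W12, 2 were higher and 5 lower. Those lower at W12 were Egr1, Egr2, Myc, Etv4 and Etv5. The Erbb4 call is uncertain, since it rests on 0.0819% of the window at W2 and 0.0787% at W12, with none at D0, W1 and W6. At Dusp6 coverage was 4.01%, 4.02%, 9.91%, 10.5% and 7.79% from D0 to W12. Spry4 had none at D0, then 0.409%, 0.920%, 1.66% and 1.37%. The 4 lower ones were Nrg2, Grb2, Spry1 and Spred2, and at Spred2, an inhibitor of the RAS pathway, coverage was 8.96%, 5.98%, 5.28%, 2.39% and 3.13%. Feedback inhibitors were thus found on both sides. For H3K4me1, Etv4 was higher at both W2 and W12 (3.75% of genes), and Adam10 and Araf were lower at both (9.71%).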

How the data were processed

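MINT-ChIP data of 38 samples were considered, 12 each for H3K4me1, H3K27ac and total H3 in skin and 2 for culture, from high or low MNase digests per the labels. As the authors describe it, reads were split by barcode, trimmed with Skewer, aligned to mm10 with Bowtie2 (2.2.9 in the submitters' processing notes), cleared of duplicates with Picard and merged over replicates with SAMtools (1.9). H3K27ac peaks were called with MACS2 (2.1.1) and H3K4me1 domains with epic2. The notes also list SICER (0.0.36), with no role given. The culture lists have the MACS2 broad layout, and their caller is not settled. The deposited H3K27ac and culture lists give a score (10 times the −log10 q-value, cut to a whole number) and a fold ratio over background for each interval, and the deposited H3K4me1 lists give a p-value. Total H3 and 14 barcode files were not used here.

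Coverage, elements and counts were computed with Python 3.11.15, NumPy 2.4.6, pandas 2.3.3, pysam 0.24.0 and matplotlib 3.10.9, with genes from the basic GENCODE M21 annotation of GRCm38. No interval ran past a chromosome end. H3K4me1 domains end on the last base of a 200 bp bin and were extended by that base. Overlapping H3K27ac peaks of the 5 lists were joined into elements. Elements are named in the text where they lie at a member's start site, have the highest fold of a window, or are among the 5 strongest called at D0 alone or gained and kept, and the remaining ones were chosen after their values were seen. The background depth of a list is the pileup at which 82.3% to 96.0% of fold values are whole reads, within a tolerance of 0.002. Sequences were read from the RefSeq GRCm38 genome, and elements that overlap an untranslated region or lie on chromosome 18 were not printed. Scripts were tested on simulated intervals. The members and lists were chosen with earlier results of these data known. The reads behind each interval are unknown and replicates are pooled, so no error, confidence interval or test was computed.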

Additional observations from a re-analysis of the deposited data

How the results depend on the processing

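The counts of members that were higher or lower by 1.5-fold were recomputed under 5 alternatives, and the element counts under 3. With 10 kb flanks, 5 members were lower in H3K27ac at W1, 0 were lower in H3K4me1 at W12, and in culture 2 were higher with WT and 1 with ΔHMG. With only the bases nearest to a member's start, 2 were higher and 5 lower in H3K27ac at W1, and 1 was higher with WT in culture. With the stronger 50% of the intervals of each list, by score or p-value, 0 were higher at W1 and 4 lower at W6 in H3K27ac, and 2 were lower at W1 in H3K4me1. In culture the same setting gave 3 higher and 1 lower with WT, 1 higher and 3 lower with ΔHMG, and 2 higher with ΔTA, and it left 9 elements at D0 alone and 13 in all 5 lists, of 58. With lists of equal length, 1 was higher in H3K27ac and 0 lower in H3K4me1 at W12. At a limit of 2-fold, H3K27ac counts were 0 higher at W1, 1 lower at W2, and 1 higher and 2 lower at W12, and H3K4me1 counts were 0 higher and 0 lower at W2 and at W12. Leaving out the W12 list, an alternative chosen after seeing the data, gave 10 gained and kept elements of 119, against 7.97% of all elements. Joining peaks only where they shared 50% of the shorter changed no element count by over 1.5-fold. Single values that changed direction were Areg H3K27ac at W2 (log2 ratio 0.53, nearest bases), Epgn H3K27ac at W2 (0.38, 10 kb) and Btc H3K27ac at W12 (-0.12, 10 kb and lists of equal length). The cause was not tested.

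No paired analysis was possible because the lists pool the replicates, and for the same reason no replicate was left out. The depth of the H3K4me1 and culture lists is unknown, and at W12 the graft and the time cannot be told apart. For H3K27ac at W12, a possible difference in calling cannot be told apart from them either.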
